A study of Mus musculus with 2 samples.

Results

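Snrpe, Sf3b1, Clk1 and Ptma are 4 genes of pre-mRNA splicing and chromatin, chosen by symbol out of the 1068 genes analysed here. They were followed across single cells of the LβT2 gonadotrope line after GnRH or vehicle. LβT2 is an immortalised line from a pituitary tumour of transgenic mice, in which control sequences of the rat LHβ gene drove the viral SV40 T antigen, so that the cells of both groups were transformed. Both cultures were at passage 15 and grew in medium with serum. One was treated with 2 nM GnRH, the hypothalamic peptide that drives gonadotropin release, and the other with vehicle, each for 40 min. Each culture gave 1 library of droplet single-cell RNA-seq, which marks each captured polyadenylated transcript with a molecular barcode (UMI) and thereby counts PCR copies of it once. The vehicle library held 1992 cells and the GnRH library 1889, and all 4 genes passed the minimum of 100 UMIs over both libraries, as did 409 of the 1068 genes.

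Most mammalian messages are spliced before export. The spliceosome is built from small nuclear RNAs wrapped in a ring of Sm proteins, and Snrpe encodes SmE, a subunit of that ring. Sf3b1 encodes the large subunit of the SF3b complex, which holds the U2 particle on the branch site of the intron. Clk1 encodes a dual-specificity kinase that phosphorylates SR proteins, the factors that mark exons, and its own message is known to be kept in the nucleus with introns unremoved and to be spliced on demand. Ptma encodes prothymosin alpha, a small and very acidic nuclear protein that binds linker histone and is abundant in proliferating cells. The assay tags the polyadenylated end of a transcript, so that spliced and intron-retaining forms of a gene were counted together.

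All 4 genes are protein-coding genes on chromosome 1 (GRCm38, GENCODE M21), and no other annotated gene overlaps any of them. Snrpe (ENSMUSG00000090553) lies on the minus strand from 133603871 to 133610291, Sf3b1 (ENSMUSG00000025982) on the minus strand from 54985169 to 55027481, Clk1 (ENSMUSG00000026034) on the minus strand from 58410189 to 58424066, and Ptma (ENSMUSG00000026238) on the plus strand from 86526726 to 86530712. The annotation gives Clk1 13 transcripts, of which 7 retain an intron and 1 is coding. Sf3b1 has 8 transcripts, of which 5 retain an intron, whereas none of the 6 Snrpe and 5 Ptma transcripts does. Processed copies of a message can take reads away from the parent gene. Of the 351 windows of 50 bases in the last 400 bases of Ptma, 18 (5.13%) were identical in the annotated pseudogene Gm12504, and no window of the other 3 genes was found in another annotated gene. Copies outside the annotation were not searched, and whether counting used strand is not given in the sources used here.

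The sequences below are the 250 bases before the RefSeq start of Sf3b1, Ptma and Snrpe, the 3 of the 4 genes with an entry in the RefSeq table used here, shown because they are the stretch searched for motifs of GnRH-responsive factors. They are 5′ to 3′ on the strand of the gene (RefSeq, GRCm38.p6). Capitals mark matches to 7 motifs searched on both strands, namely the GC box (GGGCGG), the ETS motif (CCGGAAG), the CCAAT box (CCAAT), the TATA box (TATAAA), the cyclic AMP response element (TGACGTCA), the AP-1 motif (TGANTCA) and the EGR motif (GCGGGGGCG). Sf3b1 is from chr1:55027479-55027728, Ptma from chr1:86526307-86526556 and Snrpe from chr1:133610281-133610530. The RefSeq start of Ptma lies upstream of its GENCODE start.
Sf3b1: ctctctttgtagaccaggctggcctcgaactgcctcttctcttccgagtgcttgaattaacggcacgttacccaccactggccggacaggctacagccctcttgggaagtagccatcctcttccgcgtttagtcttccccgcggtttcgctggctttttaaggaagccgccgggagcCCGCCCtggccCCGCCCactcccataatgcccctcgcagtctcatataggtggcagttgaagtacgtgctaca
Ptma: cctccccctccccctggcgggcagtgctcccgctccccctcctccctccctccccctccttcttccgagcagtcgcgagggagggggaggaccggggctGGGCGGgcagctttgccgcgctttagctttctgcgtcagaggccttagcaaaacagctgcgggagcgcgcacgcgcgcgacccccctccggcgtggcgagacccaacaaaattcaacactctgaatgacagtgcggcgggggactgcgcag
Snrpe: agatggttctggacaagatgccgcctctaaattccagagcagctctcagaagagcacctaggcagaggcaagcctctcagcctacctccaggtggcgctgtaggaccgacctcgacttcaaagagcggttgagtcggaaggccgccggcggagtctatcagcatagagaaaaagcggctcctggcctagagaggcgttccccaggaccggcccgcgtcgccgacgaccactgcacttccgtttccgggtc

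Sf3b1 held 2 GC boxes, at 73 to 68 and 62 to 57 bases before its start, Ptma held 1 at 151 to 146 bases, and Snrpe held none of the 7 motifs. A GC box was present in 32.7% of the 32851 windows of this length in the RefSeq table. None of the 3 windows held the cyclic AMP response element (1.55% of all windows), the AP-1 motif (6.75%) or the EGR motif (2.57%), which are known targets of GnRH signalling. The window of Btg2, the gene with the highest ratio of GnRH over vehicle, held 3 GC boxes, 2 CCAAT boxes and the cyclic AMP response element, the last at 166 to 159 bases before its start. Clk1 had no entry. A match describes the letters in the window and says nothing of binding. The windows were 58.4% (Sf3b1), 69.2% (Ptma) and 60.8% (Snrpe) GC, against a median of 52.4%.

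To assess how abundant the 4 genes were, UMIs were summed over the cells of a library and scaled to a total of 1000000 over the analysed genes (CPM). The vehicle library had 1126320 UMIs of these genes and the GnRH library 1118763, with medians of 543.5 and 561 per cell. These are totals over part of chromosome 1 and not the depth of the libraries. Because 1 UMI stands for 1 transcript whatever its length, levels were not divided by length. Intervals are 95% intervals and cover counting error only, and with 1 library per treatment the differences could not be checked in replicates and were not tested. Gonadotrope markers (Lhb, Cga, Gnrhr and 3 others) were not among the genes analysed here, so the identity of the cells was not checked here. The fibroblast marker Col3a1, the only one of 10 markers of other or dividing cells analysed, had 0 UMIs in both libraries.

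Ptma was among the most abundant transcripts of the table. It had 80161 UMIs in the vehicle library, or 71171 CPM (interval 70679 to 71665), and 80231 in the GnRH library, or 71714 CPM (71219 to 72212). It took 7.12% and 7.17% of the analysed UMIs and ranked second in both libraries, between the ribosomal protein gene Rpl37a and the granin gene Scg2. Snrpe had 16231 UMIs in the vehicle library, at 14411 CPM (14190 to 14634), and 14891 in the GnRH library, at 13310 CPM (13097 to 13526). Sf3b1 had 7219 and 7222 UMIs, at 6409 CPM (6262 to 6559) and 6455 CPM (6307 to 6606). Snrpe was thus counted at about the level of its neighbour Myeov2 (14056 CPM in the vehicle library, 13837 to 14276), and their intervals overlapped. Sf3b1 stood next to the centromere chaperone gene Hjurp (6598 CPM, 6449 to 6750), again with overlapping intervals, whereas in the GnRH library Hjurp was lower, at 5675 CPM (5536 to 5816).

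Clk1 was the least abundant of the 4 and the one that differed most between the libraries. It had 1953 UMIs in vehicle-treated cells, at 1734 CPM (1658 to 1813), and 2548 in GnRH-treated cells, at 2278 CPM (2190 to 2368). The intervals did not overlap. In the vehicle library Clk1 stood between Tex30 (1735 CPM) and the complex I gene Ndufs1 (1726 CPM), which did not differ from it beyond counting error. In the GnRH library those neighbours were at 1789 and 1657 CPM, both below the interval of Clk1, and Clk1 had moved from rank 99 to rank 72 of the 1068 genes.

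**Figure D1:**
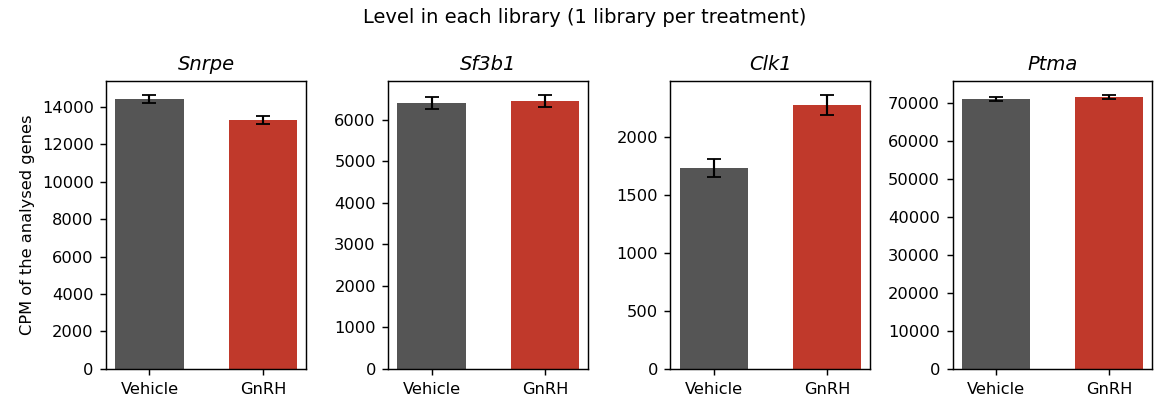
Level of Snrpe, Sf3b1, Clk1 and Ptma in the vehicle and GnRH libraries, in CPM of the analysed genes, each panel with its own axis from 0. Bars are the 1 library of each treatment and error bars are 95% Poisson intervals. The Clk1 bars stand at 1734 and 2278 CPM with intervals that do not overlap, and the Ptma bars at 71171 and 71714 CPM.

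The question of the design was which transcripts differed after 40 min of GnRH. The log2 ratio of GnRH over vehicle was 0.39 for Clk1 (0.31 to 0.48), or 1.31-fold (1.24 to 1.39). It was 0.01 for Sf3b1 (-0.04 to 0.06), 0.01 for Ptma (-0.0032 to 0.03) and -0.11 for Snrpe (-0.15 to -0.08). None of the 4 genes was 1.5-fold apart, and 17 of the 409 genes (4.16%) were, 10 of them higher (2.44%) and 7 lower (1.71%) after GnRH. The 409 genes had a median of -0.09 on this scale and quartiles of -0.19 and 0.00084. Against this distribution Clk1 lay above the value that bounded 95% of the genes, 0.33, and 16 genes had a higher ratio. Snrpe lay in the middle, with 230 genes above and 178 below it, so that its lower level was that of the typical gene of the table. Sf3b1 and Ptma lay side by side in the upper part, with 93 and 92 genes above them.

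The ratio of Clk1 stayed above 0 under each of the 8 other scalings, cell filters and depths run, from 0.29 to 0.48. Those of Sf3b1 and Ptma also stayed above 0, at no more than 0.10, and that of Snrpe below 0, from -0.13 to -0.02. Btg2, known as an antiproliferative early response gene, had a log2 ratio of 5.01 (4.92 to 5.10), from 931 to 29953 CPM.

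**Figure D2:**
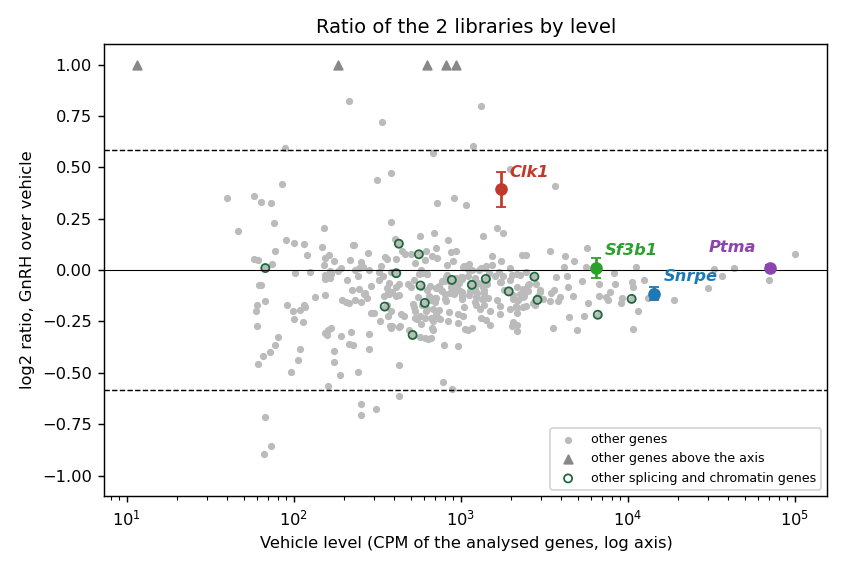
Log2 ratio of GnRH over vehicle against the vehicle level in CPM (log axis) for the 409 genes with at least 100 UMIs; dashed lines mark 1.5-fold. Coloured points are the 4 genes with 95% counting intervals, open circles the other listed splicing and chromatin genes, and triangles at the top edge 5 genes above the axis. Clk1 stands at 0.39, under the dashed line, and the other 3 genes between -0.11 and 0.01.

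Other genes linked to splicing or to chromatin were read from 2 lists, drawn up with earlier results of these data known. Of 52 further splicing genes, 5 were among the genes analysed here and 4 had at least 100 UMIs. None of these 4 was 1.5-fold apart. All 4 had ratios below 1, as did 305 of the 409 genes (74.6%). Their median log2 ratio was -0.11, against -0.09 for all 409 genes. The signs depend on the scaling. Another scaling of the libraries (TMM) raised all log2 ratios by 0.09, more than Khdrbs2 and Ppil3 lay below 0. Dyrk3, a kinase related to the CLK family that dissolves condensates of splicing factors, had 579 UMIs after vehicle and 462 after GnRH. Its log2 ratio was -0.32 (-0.50 to -0.14), opposite in sign to that of Clk1. Ppil3, a prolyl isomerase of the spliceosome encoded next to Clk1, was at 883 and 854 CPM, a log2 ratio of -0.05 (-0.18 to 0.08). Khdrbs2, an RNA-binding regulator of alternative exons, was at 2756 and 2695 CPM (-0.03, -0.11 to 0.04), and Zc3h11a, an mRNA export factor, at 350 and 309 CPM (-0.18, -0.39 to 0.03). Rbm44 had 5 and 1 UMIs and was below the minimum.

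Of 53 further chromatin genes, 16 were among those analysed and 12 had at least 100 UMIs. None was 1.5-fold apart. Their median log2 ratio was -0.07, with 3 above and 9 below 0, close to the 74.6% of the 409 genes (305) that lay below 0. These counts are of CPM ratios. TMM, which raised all log2 ratios by 0.09, brought the median of the 409 genes to -0.0033. That shift is more than Hdac4, Ino80d, Rbbp5 and Smarcal1 lay below 0. The lowest was that of Hjurp, the chaperone that loads the centromeric histone, at 6598 and 5675 CPM (-0.22, -0.27 to -0.17). Nucks1, an abundant nuclear DNA-binding protein, was at 10525 and 9549 CPM (-0.14, -0.18 to -0.10), and Phf3, a reader of elongating RNA polymerase, at 2872 and 2598 CPM (-0.15, -0.22 to -0.07). The histone demethylase gene Kdm5b had a log2 ratio of -0.10 (-0.19 to -0.02) and the annealing helicase gene Zranb3 one of -0.16 (-0.32 to -0.00035). Values for Hdac4 (-0.04), Ino80d (-0.07), Rbbp5 (-0.08) and Smarcal1 (-0.02) had intervals that included 0. So did those of the 3 genes above 0, Ing5 (0.13), Bard1 (0.08) and Arid5a (0.01). Sp100, Sp110 and Sp140, nuclear body proteins, had fewer than 100 UMIs, and the most abundant of them was Sp140 with 52 and 45. Ptma, at 0.01, stood above 10 of these 12 genes, as it did above 316 of all 408 other genes, and Clk1 stood above all 16 genes of both lists, with 16 of the 408 above it.

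The study asked how far single cells differ from each other. Every cell had Ptma: counts ran from 2 to 138 UMIs around a median of 36 after vehicle, and from 1 to 181 around a median of 38 after GnRH. Snrpe was present in 98.5% of vehicle-treated cells (97.9 to 99.0%) and 98.8% of GnRH-treated cells (98.2 to 99.2%), with a median of 7 UMIs in both and highest counts of 37 and 38. Sf3b1 was found in 92.1% (90.8 to 93.3%) and 93.9% of cells (92.7 to 94.9%), with a median of 3 UMIs in both. These 3 transcripts were therefore detected in nearly all cells of either treatment. No cells known to lack them were identified, so that the part of these shares given by free RNA is not known.

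Clk1 was near the limit of detection per cell. After vehicle 1187 of 1992 cells, or 59.6% (57.4 to 61.8%), had a Clk1 UMI, and after GnRH 1289 of 1889 did, or 68.2% (66.1 to 70.3%). The median was 1 UMI in both. Cells with 3 or more Clk1 UMIs made up 9.44% of the vehicle (8.19 to 10.8%) and 16.9% of the GnRH library (15.3 to 18.7%), and the highest counts were 6 and 9. Shares depend on depth, so every cell was also reduced by random draw to 300 UMIs (thinned), leaving 1773 vehicle and 1781 GnRH cells. Clk1 was then found in 41.9% (39.6 to 44.2%) and 47.4% (45.1 to 49.8%), a smaller gap in the same direction.

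Thinning brought the other shares to 98.2 and 97.4% for Snrpe and to 83.0 and 84.3% for Sf3b1 in the vehicle and GnRH libraries. Ptma was still found in every cell, with a median of 20 UMIs in both.

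**Figure D3:**
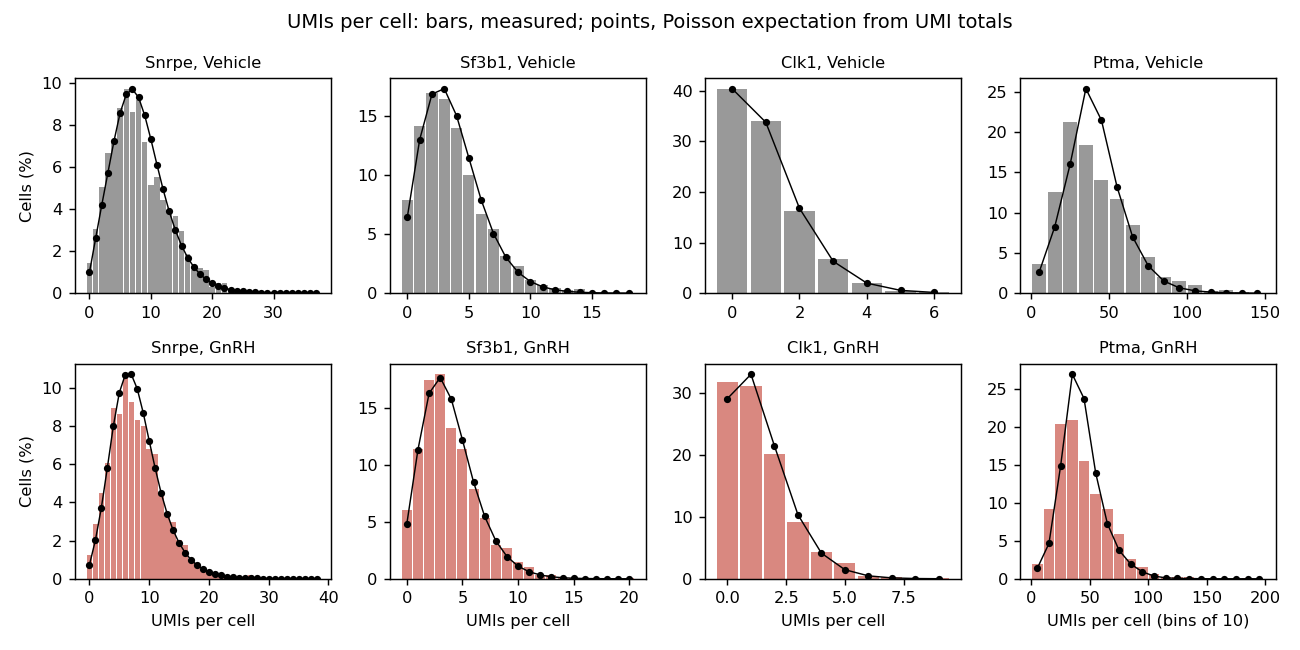
UMIs per cell (horizontal axis) against the share of cells in percent, for the 4 genes in the vehicle (upper row) and GnRH library (lower row); Ptma is in bins of 10 UMIs. Bars are measured shares and black points the shares that Poisson counting gives from the UMI totals. Clk1 follows the points in the vehicle library, with 40.4% of cells at 0 measured and expected, whereas Ptma is broader than the points in both libraries.

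For the spread between cells, the coefficient of variation (CV) was squared. The square was divided by what Poisson counting gives at the UMI totals of the cells. A ratio of 1 is counting noise together with the spread that the UMI totals bring. For abundant Ptma the totals made up most of the expectation. Its expected variance over the mean was 7.75 and 6.95 in the vehicle and GnRH libraries, against 1 from counting alone. On this ratio Ptma was at 1.58 after vehicle and 1.64 after GnRH and was the only one of the 4 genes at 1.5 or more. Among all genes that averaged 0.1 UMI per cell or more, 20 of 344 (5.81%) reached 1.5 in the vehicle and 23 of 342 (6.73%) in the GnRH library, and Ptma ranked 18 in both. After thinning, which takes away the differences in UMI total, Ptma was at 2.88 and 3.03 and ranked 5 of 301 and 5 of 292 genes. Its CV was then 0.369 and 0.377, against 0.217 from counting in both.

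Snrpe was at 1.22 and 1.19 and Sf3b1 at 1.21 and 1.16, above the median gene (1.07 in both libraries) but under 1.5. Clk1 was at 0.992 in the vehicle library, rank 309 of 344, and at 1.15 in the GnRH library (rank 97 of 342). After thinning Clk1 was at 1.04 and 1.11. In the GnRH library 31.8% of cells had no Clk1 UMI, against 29.1% from Poisson counting. In the vehicle library both shares were 40.4%.

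**Figure D4:**
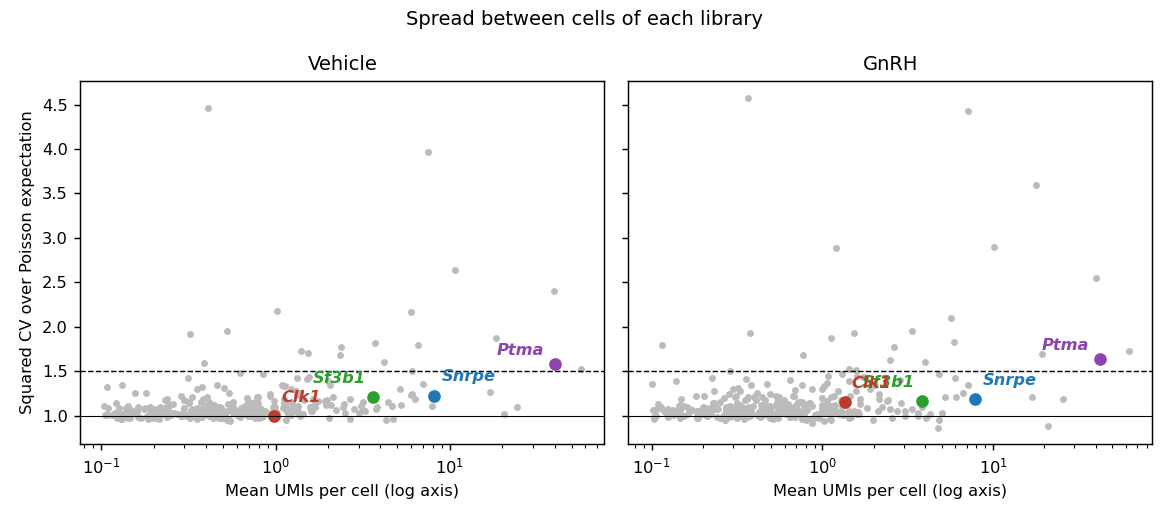
Squared CV over its Poisson expectation against the mean UMIs per cell (log axis) in the vehicle (left) and GnRH library (right). Genes shown average 0.1 UMI or more. The solid line is counting noise with the spread that UMI totals bring, and the dashed line 1.5. Grey points are other genes. Ptma is above the dashed line in both panels (1.58 and 1.64), and Clk1 is at 0.992 on the left and 1.15 on the right.

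Cells of each library were then divided by their UMI total into 3 groups of nearly equal size, called UMI-poor, middle and UMI-rich. Clk1 differed with the total in vehicle-treated cells, where it was at 2223 CPM in UMI-poor (2032 to 2428), 1797 in middle (1662 to 1941) and 1492 in UMI-rich cells (1391 to 1598). The log2 ratio of UMI-rich over UMI-poor cells was -0.58 (-0.74 to -0.41), the third lowest of 364 genes, whose median was -0.02. In the GnRH library Clk1 was at 2337, 2392 and 2173 CPM, a log2 ratio of -0.10 (-0.25 to 0.04). Accordingly, the log2 ratio of GnRH over vehicle for Clk1 was 0.07 in UMI-poor (-0.11 to 0.25), 0.41 in middle (0.26 to 0.56) and 0.54 in UMI-rich cells (0.41 to 0.67). The higher Clk1 level of the GnRH library was thus not detectable among the cells with fewest UMIs. After thinning, which weights all cells alike, its log2 ratio was 0.29. The groups were made within each library, and UMI-poor cells had a median total of 372 after vehicle and 408 after GnRH. The part of this gap in the result and the difference between groups were not tested.

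Ptma differed with the total in the other direction, by an amount common in the table (rank 275 of 364 genes from the lowest in the vehicle and 244 of 363 in the GnRH library). It was at 66055 CPM in UMI-poor and 72623 CPM in UMI-rich vehicle-treated cells (log2 ratio 0.14, 0.11 to 0.16), and at 67121 and 72714 CPM in GnRH-treated cells (0.12, 0.09 to 0.14). Snrpe showed the same order, with log2 ratios of 0.11 (0.05 to 0.17, rank 257) and 0.13 (0.06 to 0.19, rank 253). For Sf3b1 the intervals included 0 in both libraries (0.06 and -0.02). The log2 ratio of GnRH over vehicle stayed within 0.06 of 0 in all 3 groups for Sf3b1 and Ptma, and ran from -0.14 to -0.07 for Snrpe.

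GnRH-treated cells differed in how much Btg2 they carried, and the 4 genes were compared along it. The 1781 thinned cells were divided by their Btg2 count, into 621 cells with 0 to 4 UMIs, 582 with 5 to 11 and 578 with 12 to 42, and Btg2 was left out of the totals for CPM. Clk1 was at 1932 CPM in the Btg2-poor (1792 to 2080), 2283 in the intermediate (2132 to 2442) and 2886 in the Btg2-rich group (2705 to 3075), and no intervals overlapped. Against 1724 CPM in vehicle-treated cells with at least 300 UMIs, the log2 ratios were 0.16 (0.04 to 0.29), 0.40 (0.29 to 0.52) and 0.74 (0.63 to 0.86).

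The log2 ratio of the Btg2-rich over the Btg2-poor group was 0.58 for Clk1 (0.44 to 0.72), the sixteenth highest of 356 genes, whose median was 0.01. In that comparison 14 genes (3.93%) were at least 1.5-fold higher and 4 (1.12%) at least 1.5-fold lower, and none of the 4 genes was among them. Clk1 lay just under that fold, and with thinned counts of the same cells it was past it, at 0.62. The median UMI total was 551, 607.5 and 564.5 in the 3 groups. The thinned cells were also divided anew by UMI total, and by Btg2 within each of these groups, into 198 Btg2-rich and 209 Btg2-poor cells of low, 180 and 229 of middle and 181 and 216 of high total. There the log2 ratio of Clk1 was 0.57 (0.29 to 0.86), 0.61 (0.37 to 0.85) and 0.49 (0.27 to 0.70), and these intervals overlapped. Between the Btg2-rich and Btg2-poor groups of all thinned cells, Sf3b1 had a log2 ratio of 0.11 (0.03 to 0.19), Snrpe one of -0.03 (-0.09 to 0.03) and Ptma one of -0.06 (-0.09 to -0.04). In the same cells of low, middle and high total Sf3b1 was at 0.08 (-0.09 to 0.25), 0.04 (-0.11 to 0.18) and 0.21 (0.08 to 0.33), and Ptma at -0.11, -0.13 and -0.03 (-0.06 to 0.01). Snrpe was at -0.13 (-0.26 to -0.0071), -0.14 (-0.24 to -0.03) and 0.046 (-0.04 to 0.13). These cells are of 1 culture, and cells that share a library are not replicates.

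Across the same thinned cells the Pearson correlation of Clk1 with Btg2 was 0.131, from 0.107 to 0.152 over 20 further random thinnings. It was the ninth highest of 338 genes, and no gene correlated with Clk1 more closely in the GnRH library. Ptma was larger in size and opposite in sign, at -0.137 (-0.152 to -0.102, rank 336), Snrpe was at -0.0769 (-0.131 to -0.0540, rank 313) and Sf3b1 at -0.0053 (-0.0081 to 0.0470). Btg2 and these genes share the fixed 300 UMIs of a cell, and the part of this in the values was not tested. In the vehicle library the value of Clk1 was -0.0192 (-0.0414 to 0.0241), where Btg2 had a mean of 0.278 UMI per thinned cell against 9.04 in the GnRH library. In the vehicle library the other 3 genes were between -0.0051 and 0.0273. All these values are small and are given as a description of sparse counts in 1773 and 1781 cells.

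**Figure D5:**
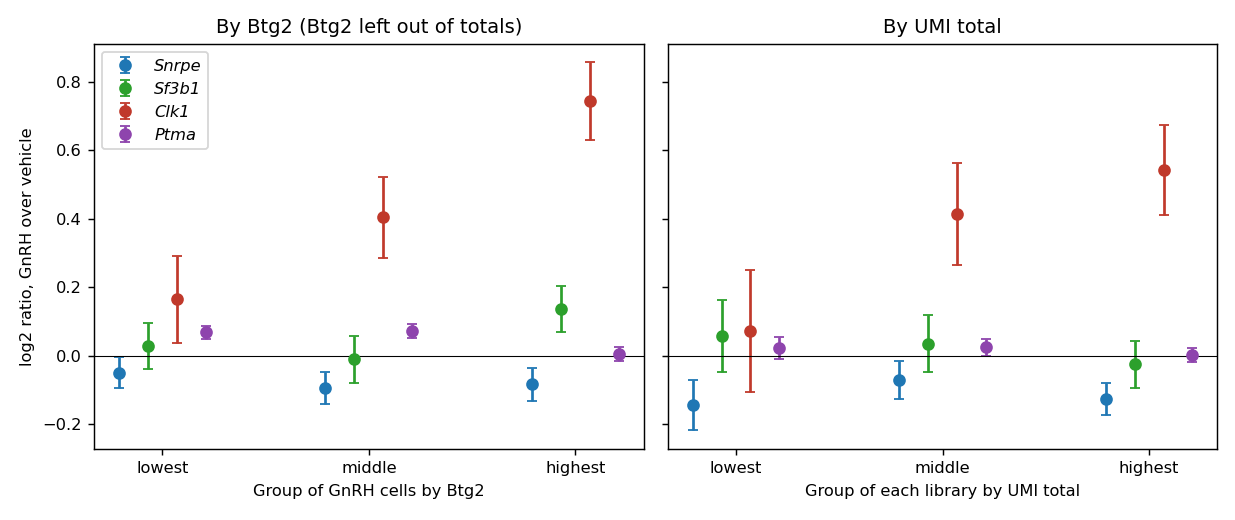
Log2 ratio of GnRH over vehicle for the 4 genes, with 95% counting intervals, by Btg2 group of the GnRH-treated cells against all vehicle-treated cells with at least 300 UMIs (left, Btg2 left out of the totals) and by group of UMI total within each library (right); lowest, middle and highest run from the poor to the rich group. Clk1 stands at 0.16, 0.40 and 0.74 on the left and at 0.07, 0.41 and 0.54 on the right, and the other 3 genes stay between -0.14 and 0.14 in both panels.

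Among themselves the 4 genes moved little together from cell to cell. The highest of the 6 pairwise correlations in thinned cells was that of Snrpe with Ptma, at 0.143 after vehicle and 0.147 after GnRH (0.127 to 0.200 and 0.123 to 0.185 over 20 thinnings). The other 5 pairs lay between -0.0672 and 0.0415 in both libraries in this thinning, and between -0.105 and 0.0639 over the 20 others. In the vehicle library Clk1 with Ptma, at -0.0619, lay outside the range of its 20 thinnings (-0.0562 to -0.0033). Sf3b1 and Snrpe, whose proteins meet in the U2 particle, were at -0.0004 and 0.0415.

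The genes most like each member were those among its 5 highest correlations in both libraries, out of 338 genes. Ptma had 5 such genes. Dtymk, which makes thymidine diphosphate for DNA synthesis, was at 0.285 after vehicle and 0.294 after GnRH. Nucks1 was at 0.213 in both, the nucleolin gene Ncl at 0.202 and 0.166, Hjurp at 0.182 and 0.229, and Ube2t, a ubiquitin-conjugating enzyme of DNA crosslink repair, at 0.175 and 0.243. Snrpe shared Dtymk (0.166 and 0.131) and Ptma with this set. Sf3b1 and Clk1 had no gene in both lists, and their highest correlations in this thinning were 0.0828 for Sf3b1 with Gmppa, whose mean over 20 thinnings was 0.0542, and 0.131 for Clk1 with Btg2. At the other end, the granin gene Scg2 and the secreted IGF-binding protein gene Igfbp5 were among the 3 lowest for Ptma and for Snrpe in both libraries (from -0.200 to -0.120 for Snrpe and from -0.207 to -0.173 for Ptma). Scg2 and Igfbp5 were named after their values were seen. Fixing the number of UMIs per cell ties abundant transcripts to each other, since a UMI of one takes the place of another.

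To give the size of the link with Hjurp, cells with 0 or 1 Hjurp UMI after thinning were set against cells with 3 or more. Ptma was at 66403 CPM in 870 and 78109 CPM in 556 vehicle-treated cells, a log2 ratio of 0.23 (0.21 to 0.26), and at 66310 and 79973 CPM in 989 and 426 GnRH-treated cells, a log2 ratio of 0.27 (0.25 to 0.29). Snrpe was at 0.07 (0.02 to 0.12) and 0.13 (0.08 to 0.19). The intervals of Sf3b1 and Clk1 included 0 in both libraries. Median UMI totals were 535 and 617 in the 2 groups of vehicle-treated cells and 534 and 627.5 in those of GnRH-treated cells, and their part in these differences was not tested.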

How the data were processed

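Cells of the immortalised LβT2 line were profiled by droplet single-cell RNA-seq (10x chemistry), in 1 vehicle and 1 GnRH library. Per the submitters' processing notes, the tool was Cell Ranger 1.3 and the build mm10, and the annotation and use of strand are not given in the sources used here. The deposited UMI counts per gene and cell were whole numbers without normalisation, and column names gave the treatment of the 3881 cells. They carried no barcodes, so shared barcodes were not counted. No cell had a count vector identical to one of the other library. The analysed table held 1068 of 27998 listed genes (3.81%), of which 1062 were found in GENCODE M21, each on chromosome 1. The end of the table, 1 gene with missing cells, was not used, nor was the barcode list.

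UMIs were summed per library and scaled to CPM of the analysed genes. Intervals are exact Poisson (levels), Clopper-Pearson (shares) and exact conditional binomial (ratios), at 95%, with scipy 1.17.1. With 1 library per treatment no test was made. Ratios were computed over all genes, and the rule of size was 1.5-fold with at least 100 UMIs. The spread expectation used the UMI total of each cell, and thinning drew 300 UMIs per cell without replacement, leaving out 219 vehicle and 108 GnRH cells. Named were the 4 genes, list members with at least 100 UMIs, level neighbours, genes among the 5 highest correlations in both libraries, and Btg2. List members under the minimum, Scg2 at the low end of correlations, Igfbp5 and Gmppa were named after their values were seen. The members and lists were chosen with earlier results of these data known. No doublet caller was run, and leaving out the 5% of cells with most UMIs served instead. TMM factors came from edgeR 4.0.16 on the summed counts. Alternatives were other scalings, cell filters, thinning, folds, UMI minimums and a plain Poisson expectation. Code was tested on simulated data. Positions are of GENCODE M21, and promoters of RefSeq, which matched 3 of the 4 genes.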

Additional observations from a re-analysis of the deposited data

How the results depend on the processing

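No paired analysis was possible because there was 1 library of each treatment, without replicate numbers. None of the 4 genes was 1.5-fold apart under any of the 8 scalings, cell filters and depths run, or at 2-fold, and none changed the sign of its ratio between the libraries. Log2 ratios left their counting intervals in 13 of 32 cases. Under median-of-ratios they were -0.034 (Snrpe), 0.091 (Sf3b1) and 0.092 (Ptma), under TMM -0.023, 0.10 and 0.10, with Clk1 at 0.48, and unscaled -0.048, 0.077 and 0.078. Totals without Btg2 gave -0.072 (Snrpe) and 0.054 (Ptma). These scalings shift all genes alike, and TMM moved the median of the 409 genes furthest, by 0.09. After thinning Clk1 was at 0.29. Of all genes, 5 were 2-fold apart, 35 were 1.5-fold apart with at least 20 UMIs as the minimum, and 74 with at least 1 UMI, since more genes with low counts entered.

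At the lower depth of thinned cells, the share with Snrpe in the GnRH library went to 97.4%, with Sf3b1 to 83.0 and 84.3% and with Clk1 to 41.9 and 47.4%. The spread of Ptma moved to 2.88 and 3.03 after thinning, where the expectation no longer holds differences in UMI total. Its expected variance over the mean was 7.75 and 6.95 as deposited in the vehicle and GnRH libraries, and 1 after thinning. The values before and after thinning are therefore not on the same scale. The CV of Ptma itself was 0.551 and 0.518 as deposited, and 0.369 and 0.377 after thinning. A plain Poisson expectation, blind to UMI totals, gave 12.2 and 11.4 for Ptma, 2.90 and 2.50 for Snrpe and 1.94 and 1.79 for Sf3b1 in the vehicle and GnRH libraries, so that all 3 passed 1.5. Under it 67 of 344 genes passed in the vehicle and 62 of 342 in the GnRH library. After thinning 14 of 301 and 15 of 292 did. No pairwise correlation moved by more than 0.1.

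The comparisons by Btg2 on thinned counts and within groups of UMI total, of correlations with Btg2, by Hjurp, and of cells with 3 or more Clk1 UMIs were chosen after seeing the data. The log2 ratio of the Btg2-rich over the Btg2-poor group stayed within its interval for Clk1, from 0.49 to 0.62, past 1.5-fold with thinned counts (0.62) and at middle total (0.61) and under it otherwise. In thinned cells divided anew by UMI total, and by Btg2 within each group, it was, at low, middle and high total, -0.13, -0.14 and 0.046 for Snrpe, which changed sign, and -0.11, -0.13 and -0.026 for Ptma, and 0.08, 0.04 and 0.21 for Sf3b1. The cause was not tested. Depth limits Clk1 most, at about 1 UMI per cell. Levels, ranks and shares of UMIs refer to part of chromosome 1.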
